A study of Mus musculus with 3 samples.

Results

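The 31 genes described here carry glucose into the cell, break it down to pyruvate and lactate, gate the entry of pyruvate into mitochondria, or respond to low oxygen. They were taken by symbol from the gene lists of 3 count matrices of mouse molar cells. The matrices of Col1a1-GFP_Cxcl12-creER P25 and Cxcl12-GFP P6 list 27998 genes each, that of Cxcl12-creER P6 lists 32285, and all 31 are in each. By role they fall into 7 groups: glucose transporters (Slc2a1, Slc2a3), hexokinases (Hk1, Hk2), upper glycolysis (Gpi1, Pfkl, Pfkm, Pfkp, Aldoa, Aldoc, Tpi1), lower glycolysis (Gapdh, Pgk1, Pgam1, Eno1, Eno2, Pkm), lactate enzymes and transporters (Ldha, Ldhb, Slc16a1, Slc16a3), pyruvate dehydrogenase kinases (Pdk1, Pdk2, Pdk4) and hypoxia response genes (Bnip3, Ankrd37, Egln1, Egln3, Adm, Car9, Ndrg1).

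Glycolysis splits glucose into pyruvate and yields ATP without oxygen, and lactate dehydrogenase turns pyruvate into lactate or back. Lactate dehydrogenase is a tetramer of A and B chains, encoded by Ldha and Ldhb, and several other steps also have more than one isozyme, used to different degrees in different tissues. When oxygen is short, hypoxia-inducible factors are no longer hydroxylated by the Egln prolyl hydroxylases and escape degradation, and they raise many glycolytic genes together with targets such as Bnip3, Ankrd37, Egln3, Adm, Car9 and Ndrg1.

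Single cells of mandibular molars were measured with 10x Genomics 3′ libraries, which count transcript ends as unique molecular identifiers (UMIs), with 1 library for each of 3 groups. Col1a1-GFP_Cxcl12-creER P25 holds cells sorted as GFP+, tdTomato+ or double positive from Col1a1-GFP; Cxcl12-creER; R26R(tdTomato/+) mice at postnatal day 25. Cxcl12-GFP P6 holds GFP+ cells of Cxcl12-GFP/+ mice, and Cxcl12-creER P6 holds tdTomato+ cells of Cxcl12-creER; R26R(tdTomato/+) mice, both at postnatal day 6. Pulp and periodontium were dissociated with enzymes in all groups. The reporters limit what was caught: GFP follows the Cxcl12 locus at P6 and a Col1a1 promoter at P25, and tdTomato marks cells in which Cxcl12-creER was active, on a tamoxifen schedule that the labels do not give. The P25 and P6 libraries differ in age, genotype, sort and library at once, and these cannot be told apart. With 1 library per group, and cells that are no replicates, no comparison here has a test, and whether animals were pooled is not stated in the labels. Intervals in parentheses after a level, share or ratio are 95% intervals that cover counting error only.

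After quality filters, 5401 of 6693 cell barcodes were kept at P25, 7065 of 7528 in Cxcl12-GFP P6, with 1121 of 1691 in Cxcl12-creER P6, and the median kept cell had 14800 UMIs at P25, 8142 in Cxcl12-GFP P6, but 1459 in Cxcl12-creER P6. Cxcl12-creER P6 stands apart as small and shallow. The P25 library shared 1 cell barcode with Cxcl12-GFP P6 and 5 with Cxcl12-creER P6, and the P6 libraries shared 0. The first 7 bases of a barcode recurred among P25 barcodes for 26.7% of the Cxcl12-GFP P6 barcodes and 100% of those of Cxcl12-creER P6, although the labels give all 3 libraries the same chemistry. The chemistry of Cxcl12-GFP P6 may thus differ from its label, and in P25 over P6 ratios this cannot be told apart from age.

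Cells were clustered without the 31 genes, and a cluster was named only where 1 marker list led, except that Col9a1-high clusters needed no lead. At P25 the classes of at least 50 cells were ligament-like (1427 cells), osteoblast or cementoblast-like (789), pulp-like (632), macrophage-like (229), Col9a1-high mesenchymal (200), neutrophil-like (189), odontoblast-like (172), connective tissue fibroblast-like (122), lining epithelium-like (110), endothelial-like (88) and Schwann-like (57). The neutrophil-like class pools unlike clusters. Elane, Prtn3, Mpo and Ctsg were among the leading genes of the larger (120 cells), and Ngp, Lcn2 and Retnlg among those of the smaller (69 cells). Cxcl12-GFP P6 gave Col9a1-high mesenchymal (2477), papilla or pulp-like (1972), follicle or ligament-like (1144) cells, besides small classes of endothelial-like (79) and mural-like (64) cells. Markers of epithelium, immune cells, endothelium and Schwann cells thus led whole clusters although the labels call the sorted cells mesenchymal, and 1275 P25 cells and 1285 Cxcl12-GFP P6 cells stayed unnamed. A level is the UMIs of a gene summed over a class divided by all UMIs of that class and multiplied by 1000000 (CPM, counts scaled to that depth). Since only transcript ends are counted, levels of different genes are not compared, and the share of an isozyme is read only from class to class.

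The promoters of 6 members are shown, because 5 of these genes separate pulp from ligament at both ages and Ldha is the partner of Ldhb. They are the 250 bases before the start of each gene in RefSeq (GRCm38.p6), 5′ to 3′ on the gene's strand, with every ACGTG or GCGTG on either strand in capitals. These are the core letters of the hypoxia response element.
Pfkl, chr10:78009808-78010057, minus strand: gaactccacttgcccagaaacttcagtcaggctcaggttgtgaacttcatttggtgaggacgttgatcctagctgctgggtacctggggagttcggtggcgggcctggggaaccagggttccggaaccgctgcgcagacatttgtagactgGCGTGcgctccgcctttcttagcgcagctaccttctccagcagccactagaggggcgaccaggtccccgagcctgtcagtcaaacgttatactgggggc
Eno1, chr4:150236458-150236707, plus strand: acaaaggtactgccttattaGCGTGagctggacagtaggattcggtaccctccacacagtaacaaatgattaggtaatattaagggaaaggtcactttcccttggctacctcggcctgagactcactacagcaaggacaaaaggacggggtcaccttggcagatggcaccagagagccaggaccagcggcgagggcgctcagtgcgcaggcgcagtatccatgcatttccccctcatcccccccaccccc
Ldha, chr7:46845554-46845803, plus strand: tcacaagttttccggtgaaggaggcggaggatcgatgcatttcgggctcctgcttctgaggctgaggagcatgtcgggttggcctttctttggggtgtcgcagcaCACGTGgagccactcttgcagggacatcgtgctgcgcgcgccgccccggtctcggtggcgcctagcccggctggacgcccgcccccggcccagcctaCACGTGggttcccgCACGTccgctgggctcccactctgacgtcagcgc
Ldhb, chr6:142507958-142508207, minus strand: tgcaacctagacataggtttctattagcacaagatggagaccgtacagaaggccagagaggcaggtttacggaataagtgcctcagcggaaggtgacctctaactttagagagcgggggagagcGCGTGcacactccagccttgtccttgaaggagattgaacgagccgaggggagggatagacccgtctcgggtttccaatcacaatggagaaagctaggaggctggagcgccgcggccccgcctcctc
Slc16a1, chr3:104638414-104638663, plus strand: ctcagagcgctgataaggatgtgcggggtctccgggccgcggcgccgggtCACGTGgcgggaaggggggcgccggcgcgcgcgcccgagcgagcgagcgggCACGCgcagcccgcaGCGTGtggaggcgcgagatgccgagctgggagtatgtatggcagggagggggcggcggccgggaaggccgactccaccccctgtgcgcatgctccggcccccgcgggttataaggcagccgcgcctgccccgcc
Adm, chr7:110627407-110627656, plus strand: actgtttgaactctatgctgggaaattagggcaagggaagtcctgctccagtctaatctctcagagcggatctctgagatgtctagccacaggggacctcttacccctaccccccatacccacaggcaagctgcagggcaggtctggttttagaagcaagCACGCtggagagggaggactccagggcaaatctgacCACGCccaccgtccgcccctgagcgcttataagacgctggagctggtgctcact
The Ldha window held 5 matches in 3 stretches, since CACGTG reads as ACGTG on both strands. Slc16a1 held 4 matches in 3 stretches, Adm held 2, and Pfkl, Eno1 and Ldhb held 1 each. Promoters were found for 29 of the 31 members, all but Slc2a3 and Ndrg1. Over any listed start, 26 of the 29 members (89.7%) held a match, against 11226 of all 27025 genes with a promoter (41.5%). With the first listed start alone the counts were 23 members (79.3%) against 10431 genes (38.6%). The members were chosen as glycolysis and hypoxia genes, and all genes were not matched to them for expression or base content. Whether the shares differ beyond that was not tested, and such letters describe the sequence only.

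The summed levels of the enzymes set the classes apart. The 17 enzymes from hexokinase to lactate dehydrogenase made up 0.663% of all UMIs in P25 lining epithelium-like cells and 0.441% in neutrophil-like cells. Among P25 mesenchymal classes the share was 0.293% in pulp-like, 0.258% in Col9a1-high, 0.237% in odontoblast-like, 0.182% in connective tissue fibroblast-like, 0.152% in ligament-like and 0.149% in osteoblast or cementoblast-like cells. In Cxcl12-GFP P6 it was 0.465% in papilla or pulp-like, 0.394% in Col9a1-high and 0.238% in follicle or ligament-like cells. Ldhb is among the 17 enzymes, at 603.6 CPM in P25 pulp-like and 76.5 CPM in P25 ligament-like cells. In Cxcl12-GFP P6 it was 1295 CPM in papilla or pulp-like and 219.7 CPM in follicle or ligament-like cells. Part of the gaps between these classes is thus Ldhb, and shares without it were not computed. Single cells spread widely: from the lower to the upper quartile, P25 pulp-like cells ran from 0.231% to 0.347% and P25 ligament-like cells from 0.113% to 0.189%, so these quartile ranges did not overlap. Of the 31 members, 11 had their highest P25 level in lining epithelium-like cells, 5 in neutrophil-like, 5 in Schwann-like and 4 in pulp-like cells. The lowest P25 level fell in lining epithelium-like cells for 1 member, in neutrophil-like for 4, in Schwann-like for 6 and in pulp-like for 1. In Cxcl12-GFP P6, 12 were highest in papilla or pulp-like cells and 11 in endothelial-like cells, where 2 and 9 were lowest. Such counts were not made over all genes, so they do not set the members apart from other genes.

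**Figure D1:**
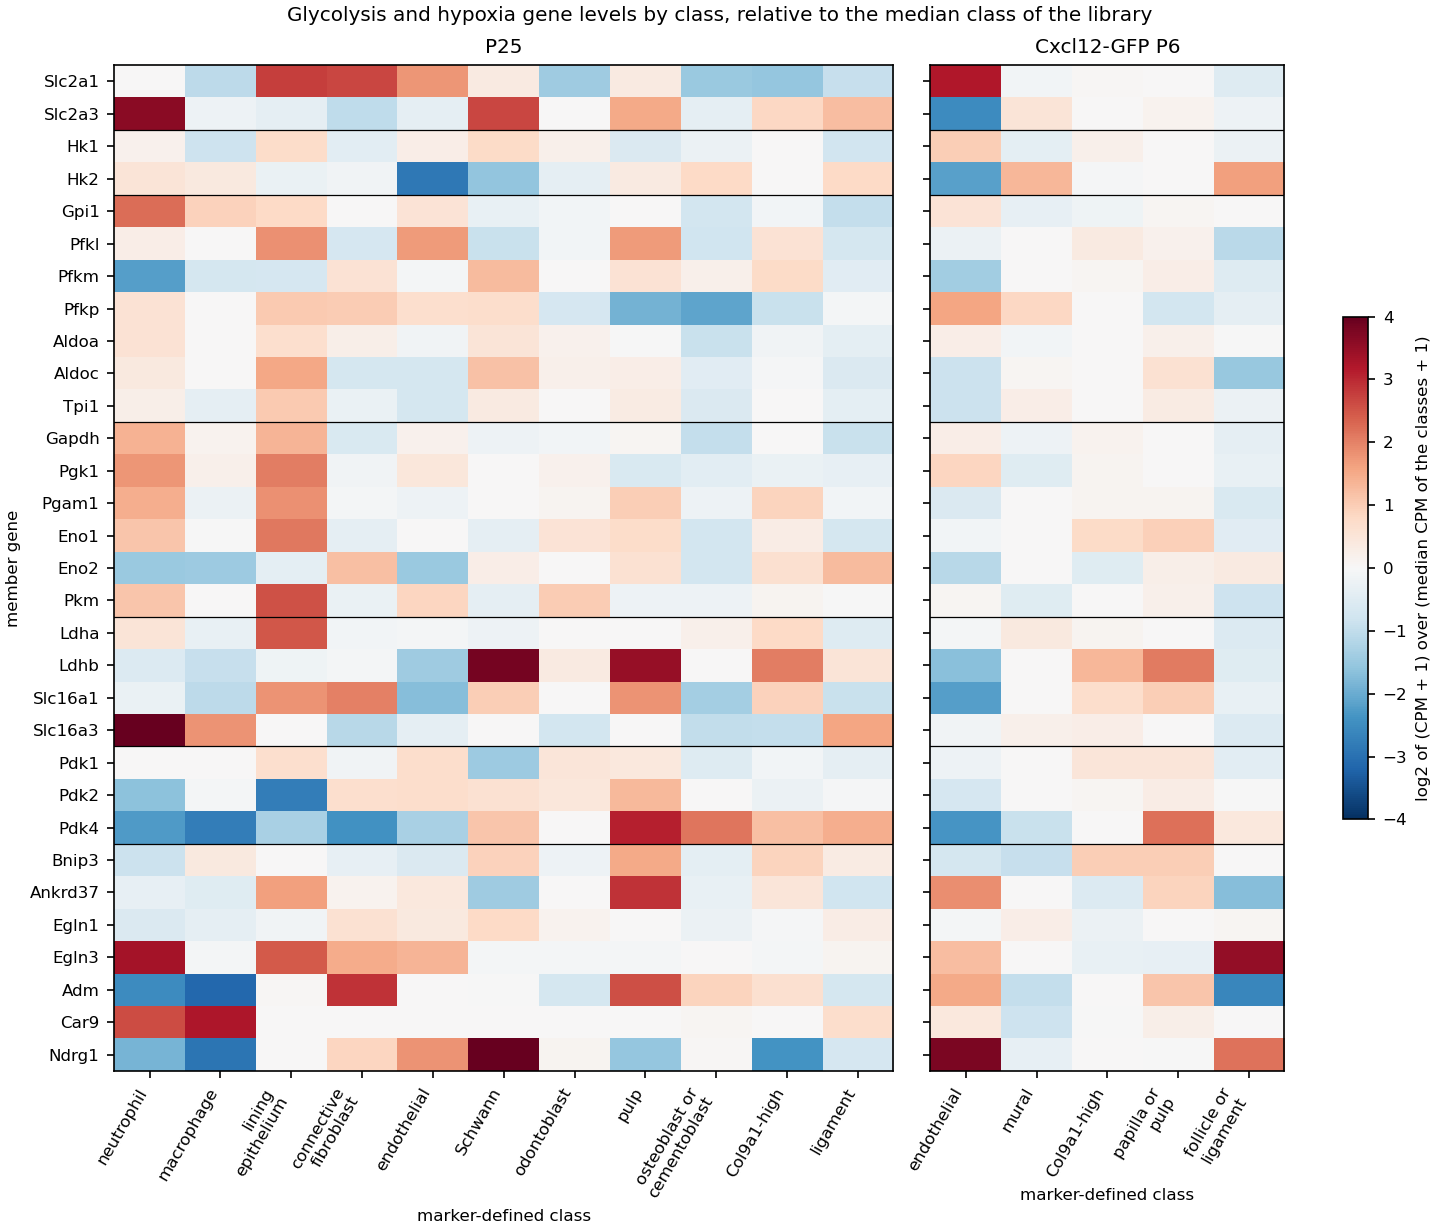
Level of each of the 31 genes (down the page, by role) in each class of at least 50 cells (across), as log2((CPM + 1)/(median CPM of the library's classes + 1)), with P25 classes left and Cxcl12-GFP P6 classes right; colours saturate at 4 log2 units either way. At P25 Ndrg1 reaches 1177 CPM and Ldhb 759.6 CPM in Schwann-like cells, and Ldhb is 603.6 CPM in P25 pulp and 1295 CPM in P6 papilla or pulp.

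Glucose enters through Slc2a1 (GLUT1) and Slc2a3 (GLUT3). At P25 Slc2a1 was 73.7 CPM in lining epithelium-like, 68.3 CPM in connective tissue fibroblast-like, 36.0 CPM in endothelial-like, 13.0 CPM in pulp-like and 4.84 CPM in ligament-like cells. In Cxcl12-GFP P6 it was 134 CPM in endothelial-like cells and at most 14.3 CPM in the other 4 classes. The highest Slc2a1 levels were thus in lining epithelium, fibroblast and vessel classes, and pulp and ligament were low. Slc2a3 was highest in P25 neutrophil-like cells at 56.1 CPM, and the smaller of their clusters (69 cells) had 157.5 CPM where the larger (120 cells) had 9.94 CPM. Slc2a3 made up 84.9% of the UMIs of both transporters in neutrophil-like cells (79.7 to 89.3) and 3.42% in lining epithelium-like cells (1.38 to 6.91).

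Hexokinase traps glucose in the cell as its phosphate, and Hk2 is the form known to be raised by hypoxia and insulin. Of the Hk1 and Hk2 UMIs at P25, Hk2 took 74.1% in ligament-like cells (71.9 to 76.3), 66.0% in osteoblast or cementoblast-like, 64.6% in pulp-like, 38.5% in odontoblast-like and 7.32% in endothelial-like cells. In Cxcl12-GFP P6 the Hk2 share was 40.2% in papilla or pulp-like cells (36.8 to 43.7) and 71.7% in follicle or ligament-like cells (69.0 to 74.3). The ligament-like class at P25 and the follicle or ligament-like class at P6 thus had a higher Hk2 share than the pulp class of the same library.

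Phosphofructokinase commits sugar to glycolysis and has liver (Pfkl), muscle (Pfkm) and platelet (Pfkp) forms. At P25 Pfkl made up 76.9% of the UMIs of these 3 genes in pulp-like cells (73.2 to 80.4) and 30.7% in ligament-like cells (27.9 to 33.7). Pfkp made up 5.73% in pulp-like and 51.5% in ligament-like cells. In Cxcl12-GFP P6 Pfkl took 64.7% in papilla or pulp-like and 50.9% in follicle or ligament-like cells, so the gap was narrower than at P25, a difference that was not tested. Aldolase cuts the doubly phosphorylated sugar: Aldoa ran from 160.7 to 472.5 CPM over the P25 classes, and Aldoc reached at most 3.72 CPM there and 5.65 CPM in Cxcl12-GFP P6. Gpi1, which makes fructose 6-phosphate, was highest in neutrophil-like cells at 587 CPM, and Tpi1, which interconverts the triose phosphates, in lining epithelium-like cells at 312.5 CPM.

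In lower glycolysis Gapdh oxidises the triose phosphate, Pgk1 and Pkm make ATP, Pgam1 moves a phosphate and the enolases Eno1 and Eno2 remove water. At P25 Gapdh was 1429 CPM in neutrophil-like and 1402 CPM in lining epithelium-like cells, and between 277.8 and 606.8 CPM in the other 9 classes. Eno1 was 579.7 CPM and Pkm 1310 CPM in lining epithelium-like cells, their highest P25 levels. Eno2, the neuronal form, was at most 11.7 CPM and Pgk1 at most 57.7 CPM in these classes of both libraries. Near-identical copies can take reads: Eno1b held 0.658% of the Eno1 and Eno1b UMIs at P25 and 3.53% in Cxcl12-GFP P6. The gene lists of P25 and Cxcl12-GFP P6 also hold Pgk1-rs7, a near copy of Pgk1 that the list of Cxcl12-creER P6 lacks. It held 0.969% of the UMIs of both copies at P25 and 1.27% in Cxcl12-GFP P6. These shares cover counted reads only, and reads lost between the copies were not measured. The low Pgk1 levels are not read as low expression of the gene.

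The lactate genes differed widely between classes. Ldhb, whose chain favours turning lactate back into pyruvate, was 759.6 CPM in P25 Schwann-like and 603.6 CPM in pulp-like cells, and between 19.3 and 221.6 CPM in the other 9 P25 classes. Its share of Ldha and Ldhb UMIs was 76.8% in Schwann-like (72.2 to 80.9), 68.9% in pulp-like (67.7 to 70.2), 29.3% in ligament-like (28.2 to 30.4), 20.4% in odontoblast-like, 14.6% in osteoblast or cementoblast-like and 3.07% in lining epithelium-like cells. In Cxcl12-GFP P6 it was 72.3% in papilla or pulp-like (71.8 to 72.9), 59.1% in Col9a1-high, 39.3% in follicle or ligament-like and 16.9% in endothelial-like cells. Ldha, whose chain favours lactate, was highest in P25 lining epithelium-like cells at 1493 CPM. With each cell thinned to 1000 UMIs, at least 1 Ldhb UMI was seen in 46.4% of P25 pulp-like, 7.08% of ligament-like and 0.909% of lining epithelium-like cells. Unthinned, the shares were 95.9%, 67.3% and 47.3%, at median depths of 9452, 16851 and 22708 UMIs. No class here is known to lack Ldhb. Thinned shares were likewise low in neutrophil-like (1.59%), macrophage-like (1.75%) and endothelial-like (2.27%) cells, and the counting intervals of these 3 overlapped that of lining epithelium. Slc16a1 (MCT1) carries lactate either way, and Slc16a3 (MCT4) mainly exports it. At P25 Slc16a1 was 80.1 CPM in connective tissue fibroblast-like, 68.8 CPM in pulp-like and 68.5 CPM in lining epithelium-like cells and at most 39.2 CPM in the others. Slc16a3 was 72.0 CPM in neutrophil-like cells and at most 11.4 CPM in the others.

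**Figure D2:**
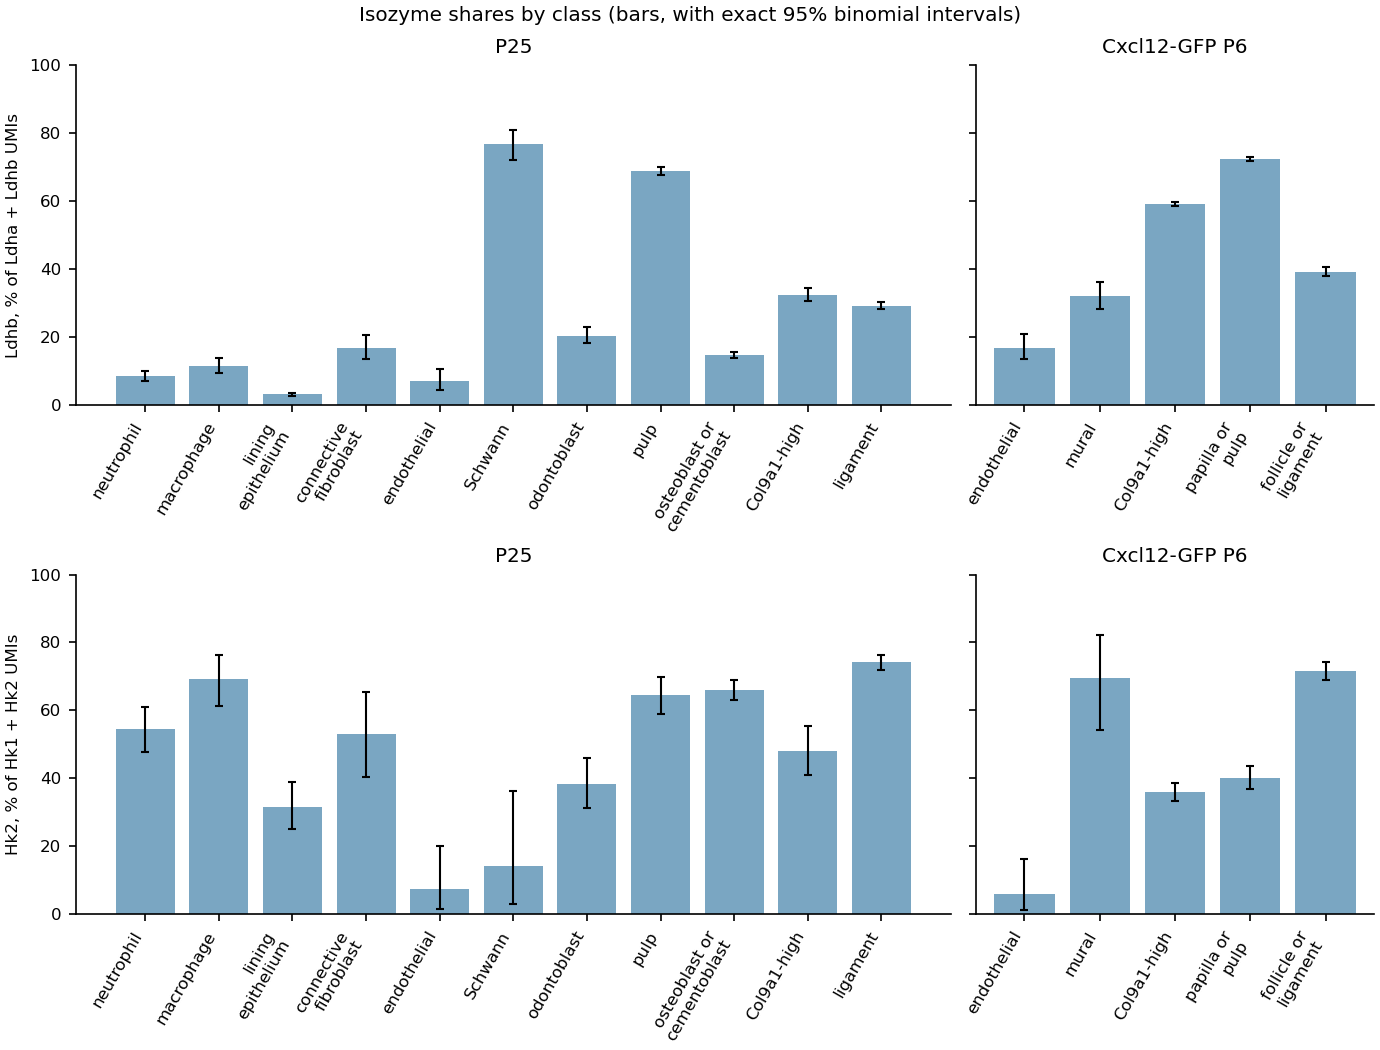
Ldhb as a percentage of Ldha and Ldhb UMIs, and Hk2 as a percentage of Hk1 and Hk2 UMIs, in each class of at least 50 cells at P25 and in Cxcl12-GFP P6, with exact binomial 95% intervals for counting error. The Ldhb share is 68.9% in P25 pulp and 29.3% in P25 ligament, and 72.3% in P6 papilla or pulp and 39.3% in P6 follicle or ligament.

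The pyruvate dehydrogenase kinases switch off the enzyme that feeds pyruvate into the mitochondrial cycle, and Pdk4 is the form known to be raised by fasting. At P25 Pdk4 was 76.3 CPM in pulp-like, 37.8 CPM in osteoblast or cementoblast-like, 23.4 CPM in ligament-like and 7.89 CPM in odontoblast-like cells. In Cxcl12-GFP P6 it was 22.8 CPM in papilla or pulp-like cells and at most 5.87 CPM in the other 4 classes. Pdk1, a known target of hypoxia-inducible factor, ran from 2.61 to 14.9 CPM over the P25 classes, and Pdk2 was highest in pulp-like cells at 21.5 CPM.

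The hypoxia response genes peaked in different classes. Adm, which encodes the vasodilator adrenomedullin, was 65.6 CPM in P25 connective tissue fibroblast-like and 52.5 CPM in pulp-like cells, and at most 15.4 CPM in the others. It had 0 UMIs in macrophage-like cells, which allows up to 0.928 CPM. Ndrg1, also a gene of myelinating Schwann cells, was 1177 CPM in Schwann-like, 177 CPM in endothelial-like and 93.2 CPM in connective tissue fibroblast-like cells, and between 5.88 and 54.4 CPM in the other 8 P25 classes. Bnip3, which marks mitochondria for removal, peaked in pulp-like cells at 63.3 CPM, and so did Ankrd37 at 18.96 CPM. Of the oxygen sensors, Egln1 ran from 42.4 to 109.6 CPM over the P25 classes, while Egln3 reached at most 9.68 CPM, in neutrophil-like cells. The carbonic anhydrase Car9 was at most 8.35 CPM in the P25 classes and 1.38 CPM in the Cxcl12-GFP P6 classes.

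At P25, pulp-like cells had higher levels of Ldhb, Slc16a1, Pfkl, Pdk4, Eno1, Pgam1, Adm and Bnip3 than ligament-like cells. Adm was 52.5 CPM in pulp-like and 4.52 CPM in ligament-like cells, 11.6-fold higher (9.37 to 14.5). Ldhb was 603.6 CPM in pulp-like and 76.5 CPM in ligament-like cells, 7.89-fold higher (7.46 to 8.34), and the 4 ligament-like clusters lay between 60.2 and 94.9 CPM, all far below pulp. Slc16a1 was 68.8 CPM in pulp-like and 9.95 CPM in ligament-like cells, 6.91-fold higher (5.90 to 8.11). Pfkl was 69.1 CPM in pulp-like and 12.3 CPM in ligament-like cells, 5.64-fold higher (4.86 to 6.55). These are the commitment step, a lactate carrier and a lactate enzyme, besides the peptide gene Adm. Pdk4 was 76.3 CPM in pulp-like and 23.4 CPM in ligament-like cells, 3.26-fold higher. Eno1 was 223 CPM in pulp-like and 82.5 CPM in ligament-like cells, 2.71-fold higher. Bnip3 was 63.3 CPM in pulp-like and 27.4 CPM in ligament-like cells, and Pgam1 was 294 CPM in pulp-like and 138.6 CPM in ligament-like cells.

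These 8 of 31 members were at least 2-fold higher, with a mean of at least 20 CPM and an interval that leaves out 1, and 0 of 31 were at least 2-fold lower. The same thresholds called 14.8% of 5950 genes higher and 8.35% lower. Here and below such percentages are of the genes that passed the minimum, while members are counted out of all 31. Of the members 17 passed the minimum, with a median log2 ratio of 0.997 against 0.25 over all genes tested. Just outside the threshold lay Gapdh, with 579.8 CPM in pulp-like and 290.1 CPM in ligament-like cells, and Gpi1, with 124.8 CPM in pulp-like and 64.4 CPM in ligament-like cells. Pkm had 194.7 CPM in pulp-like and 221.9 CPM in ligament-like cells. Below the minimum, Ankrd37 had 18.96 CPM in pulp-like and 0.555 CPM in ligament-like cells, and Pfkp had 5.14 CPM in pulp-like and 20.5 CPM in ligament-like cells. An unnamed cluster of 394 cells, with Ldhb at 127.7 CPM and Adm at 3.89 CPM, matched the apical papilla and ligament lists almost equally. When clusters took the best list alone it joined pulp, and 3 of 31 members (Ldhb, Slc16a1, Pfkl) were called, against 8.59% of all genes. Adm was then no longer called although its log2 ratio was 2.36, whereas Eno1, Pdk4, Bnip3 and Pgam1 were under 2-fold. With doublets kept the called members were 3 as well (8.39%), and with median-of-ratios scaling Bnip3 and Pgam1 were lost. Immediate early and stress genes, which rise in handled cells, summed to 28267 CPM in pulp-like and 10533 CPM in ligament-like cells, and the median mitochondrial share was 6.00% in pulp-like and 4.47% in ligament-like cells. Endothelial markers summed to 13.5 CPM in pulp-like cells (1 of 7 at 0) and 4.04 CPM in ligament-like cells (0 of 7 at 0), and erythroid markers to 54.6 CPM (1 of 6 at 0) in pulp-like and 483 CPM (0 of 6 at 0) in ligament-like cells. The part of these in the result was not tested.

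**Figure D3:**
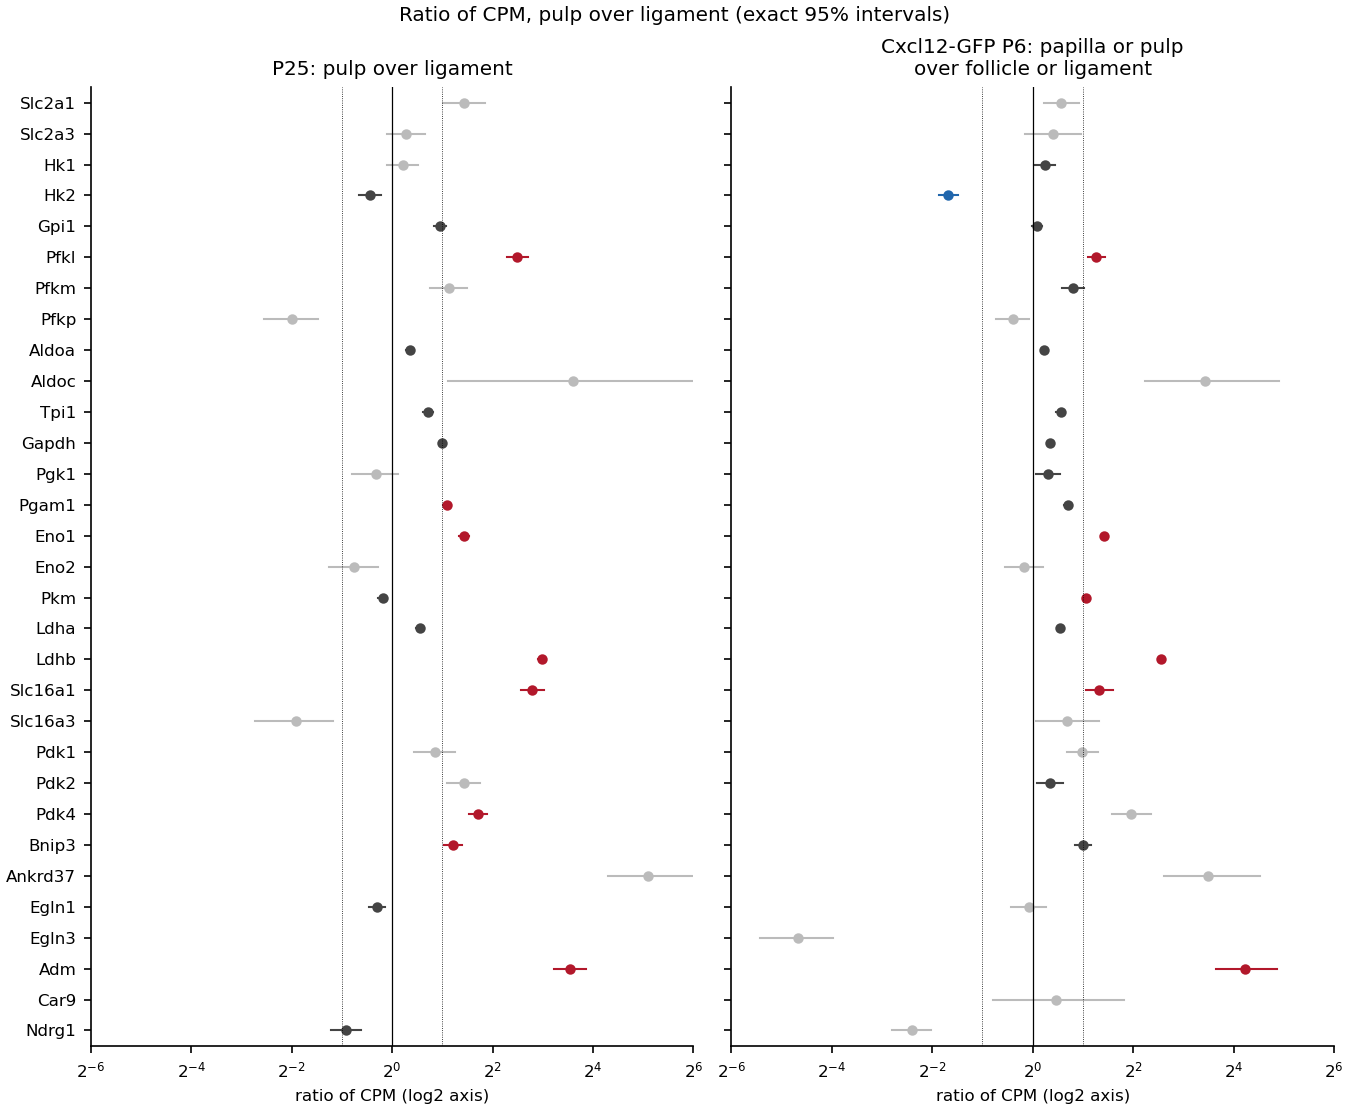
Ratio of CPM (log2 axis) of each member in pulp-like over ligament-like cells at P25 (left) and in papilla or pulp-like over follicle or ligament-like cells in Cxcl12-GFP P6 (right), with exact 95% intervals for counting error; red and blue are at least 2-fold higher and lower, dark grey passed the minimum of 20 CPM only, light grey did not. Ldhb lies at 7.89-fold at P25 and 5.90-fold at P6, Adm at 11.6-fold and 18.8-fold.

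In Cxcl12-GFP P6, papilla or pulp-like cells again had higher Ldhb, Adm, Eno1, Slc16a1 and Pfkl than follicle or ligament-like cells, with Pkm in addition and with Hk2 lower. Adm was 41.2 CPM in papilla or pulp-like and 2.19 CPM in follicle or ligament-like cells, 18.8-fold higher (12.6 to 29.3). Ldhb was 1295 CPM in papilla or pulp-like and 219.7 CPM in follicle or ligament-like cells, 5.90-fold higher (5.66 to 6.15). Eno1 was 619.8 CPM in papilla or pulp-like and 232.7 CPM in follicle or ligament-like cells, 2.66-fold higher. Slc16a1, Pfkl and Pkm were 2.51-fold, 2.41-fold and 2.09-fold higher. Hk2 went the other way, with 22.3 CPM in papilla or pulp-like and 71.5 CPM in follicle or ligament-like cells (2.82 to 3.65-fold lower). In all 6 of 31 members were at least 2-fold higher and 1 lower, against 6.53% and 6.65% of 6176 genes, and the 18 members above the minimum had a median log2 ratio of 0.63 against 0.08 over all genes. Pkm was on the 2-fold edge, with 549.7 CPM in papilla or pulp-like and 263.4 CPM in follicle or ligament-like cells, and Bnip3 just missed it. Pkm kept its call in 4 of 10 other settings, with log2 ratios between 0.73 and 1.07, and Slc16a1 in 7. When clusters took the best list alone 3 of 31 were called higher, against 5.83% of all genes. Adm was then not called, although its log2 ratio was 3.37. Without the ligament-like cluster 2 of 31 were lower in place of 1. Egln3, below the minimum, had 1.23 CPM in papilla or pulp-like and 31.1 CPM in follicle or ligament-like cells. Immediate early and stress genes summed to 13404 CPM in papilla or pulp-like and 16460 CPM in follicle or ligament-like cells, the opposite order to P25. Mural markers summed to 291.8 CPM in papilla or pulp-like and 1687 CPM in follicle or ligament-like cells, with 1 of 7 at 0 in each, and Hk2 was 57.7 CPM in mural-like cells. The part of mural RNA in the Hk2 difference was not tested.

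Clusters within these P6 classes differed. Ldhb was 1917 and 1852 CPM in the coronal pulp-like clusters and 297 CPM in the apical papilla-like cluster, with 248.9 CPM in the follicle-like and 141.1 CPM in the ligament-like cluster. Adm was 66.3 and 55.1 CPM in the coronal clusters and 8.25 CPM in the apical cluster. Pdk4 was 43.6 and 23.9 CPM in the coronal clusters and 4.22 CPM in the apical cluster. The apical cluster thus lay nearer to the follicle for these genes. Pkm was 434 and 433 CPM in the coronal clusters and 746 CPM in the apical cluster. Egln3 was 41.3 CPM in the follicle-like and 3.55 CPM in the ligament-like cluster.

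**Figure D4:**
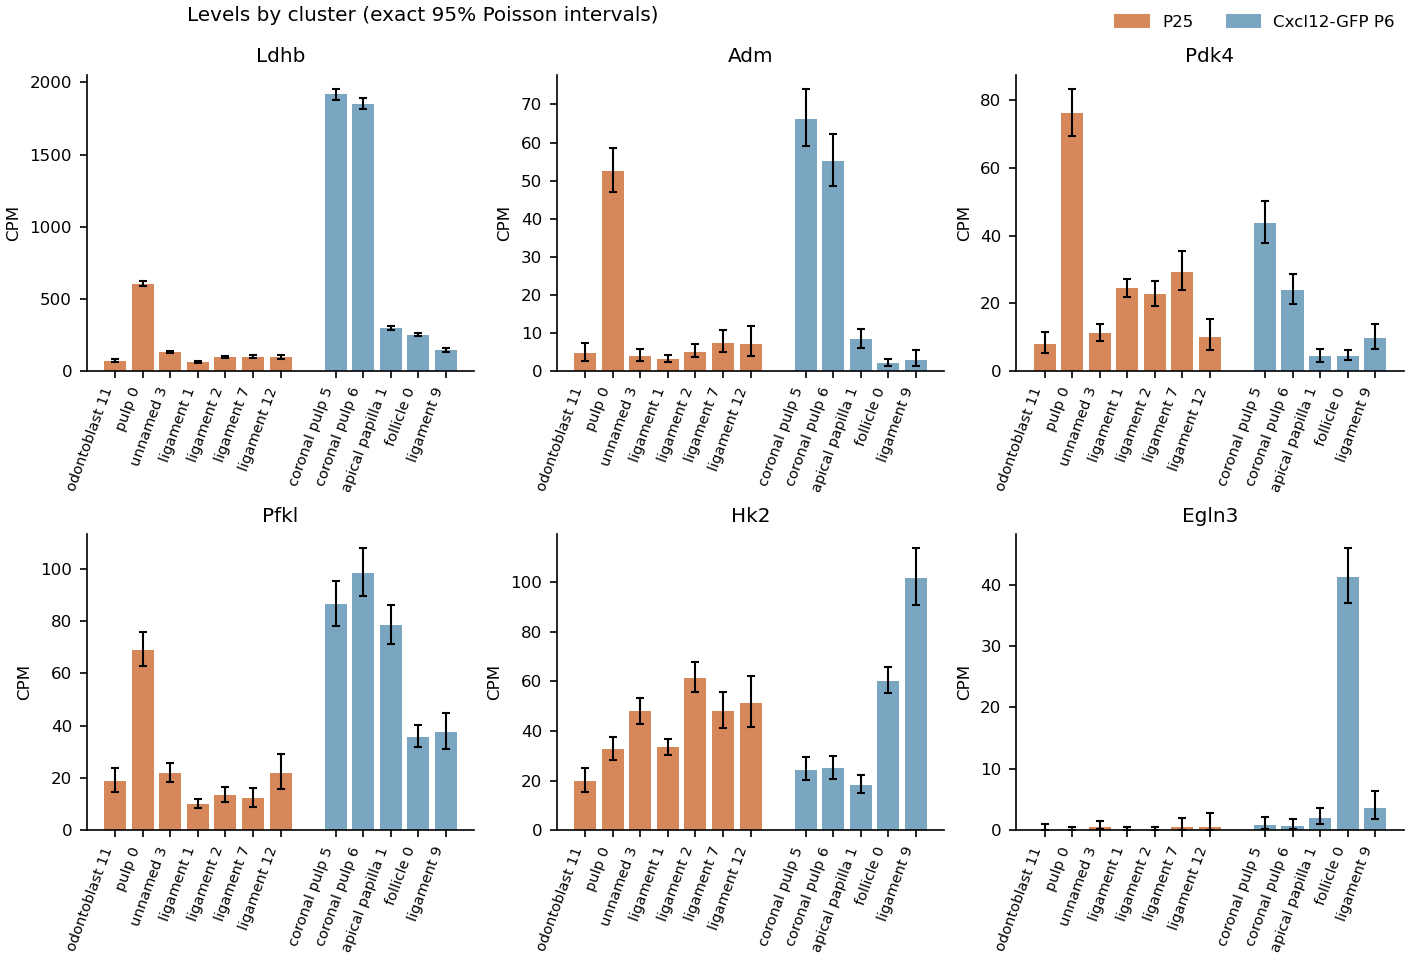
Level in CPM of Ldhb, Adm, Pdk4, Pfkl, Hk2 and Egln3 in clusters of odontoblast, pulp, follicle and ligament and in the unnamed P25 cluster of 394 cells, P25 in orange on the left and Cxcl12-GFP P6 in blue on the right; bars are levels and whiskers exact Poisson 95% intervals. Ldhb is 1917 and 1852 CPM in the coronal clusters and 297 CPM in the apical cluster, and Egln3 is 41.3 CPM in the follicle-like cluster.

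Odontoblast-like cells, the dentin-forming class, had lower Adm, Pdk4, Ldhb, Pfkl, Slc16a1 and Bnip3 than pulp-like cells at P25, and higher Ndrg1 and Pkm. This comparison shares the pulp-like cells with the comparison against ligament. Adm was 4.51 CPM in odontoblast-like and 52.5 CPM in pulp-like cells, 11.7-fold lower (7.07 to 20.6). Pdk4 was 7.89 CPM in odontoblast-like and 76.3 CPM in pulp-like cells, 9.67-fold lower. Ldhb was 68.5 CPM in odontoblast-like and 603.6 CPM in pulp-like cells, 8.81-fold lower (7.74 to 10.1). Pfkl, Slc16a1 and Bnip3 were 3.66-fold, 3.59-fold and 3.40-fold lower. Ndrg1 was 54.4 CPM in odontoblast-like and 16.7 CPM in pulp-like cells, 3.26-fold higher (2.55 to 4.17), and Pkm was 453 CPM in odontoblast-like and 194.7 CPM in pulp-like cells, 2.33-fold higher (2.16 to 2.51). Ldha, Gapdh, Eno1, Gpi1, Aldoa and Tpi1 were all within 1.23-fold, as Ldha with 267 CPM in odontoblast-like and 272 CPM in pulp-like cells. In all 2 of 31 members were at least 2-fold higher and 6 lower, against 8.01% and 19.6% of 5846 genes, with a median log2 ratio of −0.25 over the 18 members above the minimum and −0.33 over all genes. With the best list alone 1 of 31 was higher, against 4.75% of all genes, since Pkm was under 2-fold. Slc16a1 was not called there, with a log2 ratio of −0.60, nor with doublets kept, with −0.50. Adm was not called under either, although its log2 ratios were −2.49 and −2.46. Egln3 and Car9 had 0 UMIs in both classes, which allows up to 0.846 CPM in odontoblast-like and 0.482 CPM in pulp-like cells. Immediate early and stress genes summed to 7340 CPM in odontoblast-like and 28267 CPM in pulp-like cells, and osteoblast markers to 36669 CPM in odontoblast-like and 1816 CPM in pulp-like cells, with 0 of 7 at 0 in each. Their part in the result was not tested.

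In osteoblast or cementoblast-like against ligament-like cells at P25, no member passed the 2-fold threshold. At least 2-fold higher were 0 of 31 members and lower 0 of 31, against 4.50% and 11.5% of 5138 genes. The median log2 ratio was −0.09 over the 14 members above the minimum and −0.18 over all genes. Ldha was 310.8 CPM in osteoblast or cementoblast-like and 185 CPM in ligament-like cells, 1.68-fold higher (1.61 to 1.75), and Hk2 was 44.6 CPM in both. Below the minimum, Slc16a3 was 0.819 CPM in osteoblast or cementoblast-like and 9.63 CPM in ligament-like cells, and Pfkp was 4.35 CPM in osteoblast or cementoblast-like and 20.5 CPM in ligament-like cells. Odontoblast-like against osteoblast or cementoblast-like cells had 3 of 31 members at least 2-fold higher (6.60% of all genes) and 2 lower (4.19%). Eno1 was 199 CPM in odontoblast-like and 80.1 CPM in osteoblast or cementoblast-like cells, and Pkm was 453 CPM in odontoblast-like and 195.6 CPM in osteoblast or cementoblast-like cells. The third, Aldoa, kept its call in 3 of 9 other settings, and Pkm in 6.

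Between ages, pulp-like cells at P25 had lower Pkm, Eno1, Pfkm and Ldhb than papilla or pulp-like cells of Cxcl12-GFP P6, and higher Egln1, Pdk4 and Slc16a1. Pkm was 194.7 CPM at P25 and 549.7 CPM at P6, 2.82-fold lower (2.66 to 3.00). Eno1 was 223 CPM at P25 and 619.8 CPM at P6, 2.78-fold lower. Ldhb was 603.6 CPM at P25 and 1295 CPM at P6, 2.15-fold lower. Egln1 was 63.1 CPM at P25 and 10.3 CPM at P6, 6.15-fold higher (5.08 to 7.46). Pdk4 was 76.3 CPM at P25 and 22.8 CPM at P6, 3.35-fold higher, and Slc16a1 was 68.8 CPM at P25 and 32.7 CPM at P6, 2.10-fold higher. The Slc16a1 call was lost in 4 of 10 other settings, with a log2 ratio as low as 0.29. Both age comparisons reuse the cells of the pulp and ligament comparisons. In pulp 3 of 31 members were at least 2-fold higher and 4 lower, against 10.6% and 9.42% of 6379 genes, with a median log2 ratio of −0.14 over 19 members and −0.15 over all genes. Without the apical papilla-like cluster the counts were again 3 and 4, and with doublets kept 1 was higher, against 8.41% of all genes. The Pdk4 log2 ratio was then 0.78. The P25 class was named from the coronal list alone, while the P6 class also held the apical papilla-like cluster. At P6 Pdk4 was 43.6 and 23.9 CPM in the coronal clusters and 4.22 CPM in the apical cluster. Ldhb was 1917 and 1852 CPM there against 297 CPM, and Pkm 434 and 433 CPM against 746 CPM. Against the coronal clusters alone the Pdk4 and Pkm ratios are thus smaller and the Ldhb ratio larger. Of 13 immediate early and stress genes 8 were higher at P25 and 1 lower, and they summed to 28267 CPM at P25 and 13404 CPM at P6. The median mitochondrial share was 6.00% at P25 and 3.33% at P6. Their part in the result was not tested.

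Follicle or ligament-like cells had higher Egln1 at P25 and lower Pfkl, Ldhb and Eno1. Egln1 was 77.4 CPM at P25 and 10.9 CPM at P6, 7.13-fold higher (5.94 to 8.62). Pfkl was 12.3 CPM at P25 and 36.3 CPM at P6, 2.96-fold lower, and Eno1 was 82.5 CPM at P25 and 232.7 CPM at P6, 2.82-fold lower. Ldhb was 76.5 CPM at P25 and 219.7 CPM at P6, 2.87-fold lower, and its log2 ratio was −0.87 without the follicle-like P6 cluster, which no longer passes 2-fold. That is 1 of 31 higher and 3 lower, against 9.14% and 17.1% of 5834 genes, with a median log2 ratio of −0.67 over 15 members and −0.33 over all genes. Without the follicle-like cluster 2 were higher (7.66% of all genes). Immediate early and stress genes summed to 10533 CPM at P25 and 16460 CPM at P6, and the median mitochondrial share was 4.47% at P25 and 2.70% at P6. Below the minimum, Egln3 had 0.159 CPM (4 UMIs) at P25 and 31.1 CPM (355 UMIs) at P6, 196-fold lower (75.9 to 723). The P25 clusters of this class were all named from the ligament list, while most P6 cells of it were follicle-like. At P6 Egln3 was 41.3 CPM in the follicle-like and 3.55 CPM in the ligament-like cluster. Against the ligament-like cluster alone the ratio is thus far smaller.

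Egln1 was at least 2-fold higher and Ldhb and Eno1 at least 2-fold lower at P25 in all 4 classes that both libraries hold, with the settings as reported. Other settings ended some of these calls: Ldhb in pulp at resolution 0.5 (log2 ratio −0.88), Ldhb in ligament without the follicle-like cluster (−0.87) and Eno1 in endothelial-like cells with median-of-ratios scaling (−0.95). The P25 Col9a1-high class had 0 cells at resolution 0.5 and with doublets kept. As reported it was led by Ambn, Crabp1 and Pcp4, with 3 markers of its list up, the fewest that allow a name. In endothelial-like cells Ldhb was 19.3 CPM at P25 and 95.5 CPM at P6, and in Col9a1-high cells it was 221.6 CPM at P25 and 766.7 CPM at P6. The endothelial comparison had 2 of 31 members higher (14.1% of all genes) and 5 lower (9.83%), and the Col9a1-high comparison 1 higher (9.18%) and 3 lower (11.9%). Egln1 also differed between libraries of the same age: over all kept cells it was 67.6 CPM at P25, 36.8 CPM in Cxcl12-creER P6 and 10.6 CPM in Cxcl12-GFP P6. Age and library cannot be told apart for it.

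**Figure D5:**
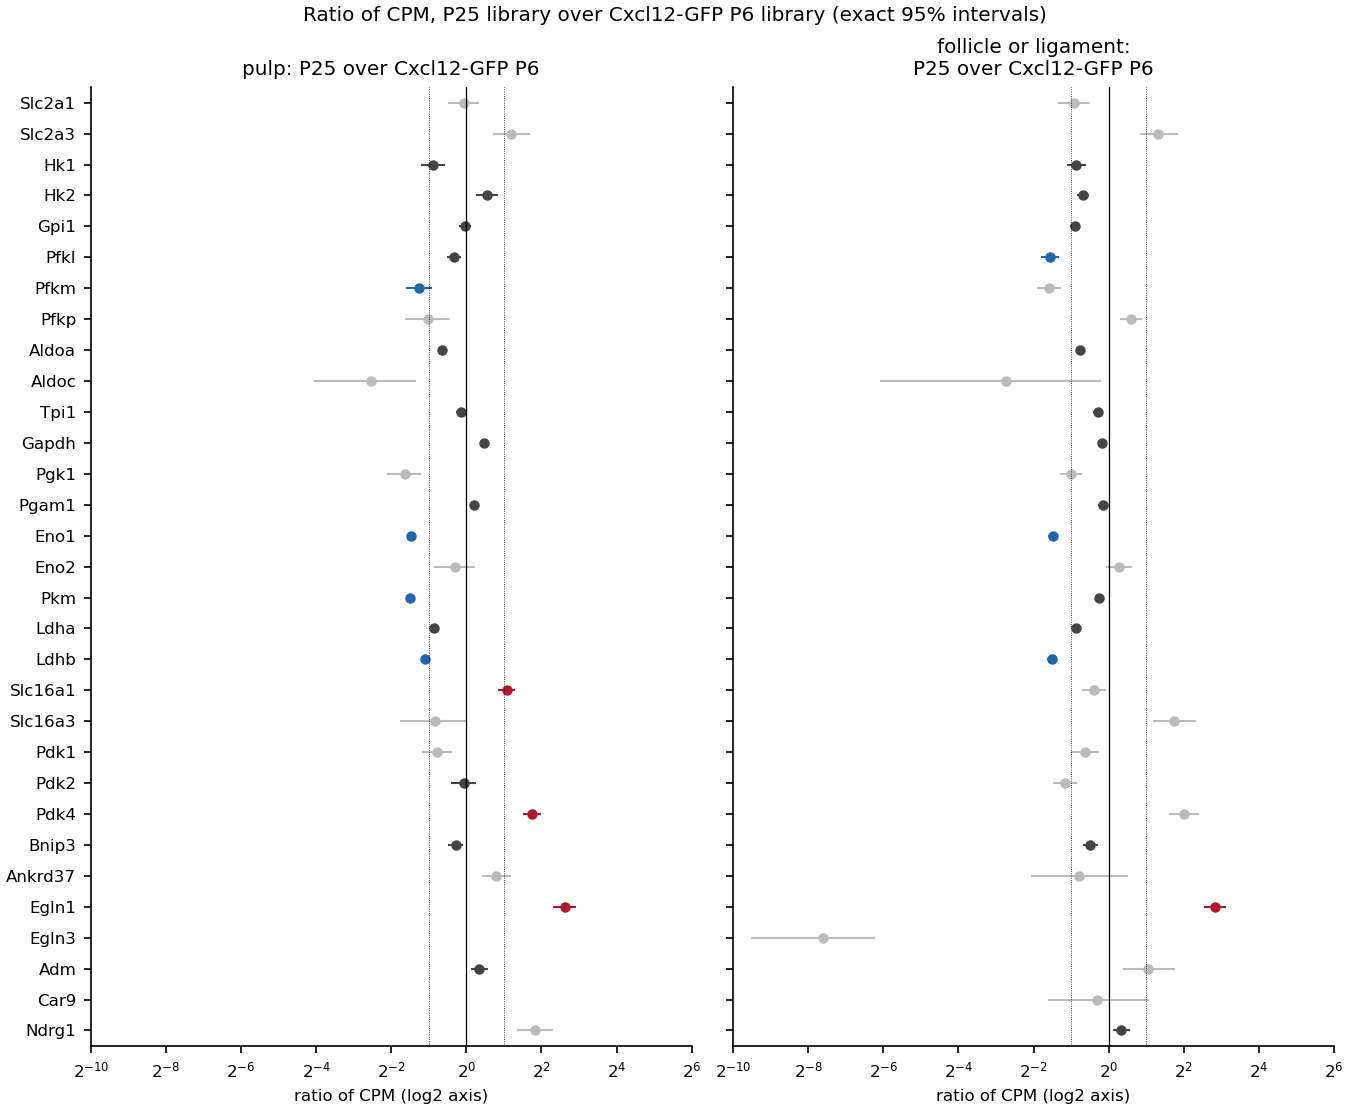
Ratio of CPM at P25 over Cxcl12-GFP P6 (log2 axis) of each member in pulp-like cells (left) and in follicle or ligament-like cells (right), with exact 95% intervals for counting error and the colours of the pulp over ligament plot; Egln3 and Car9 have no point in pulp because they had 0 UMIs at P25. Egln1 lies at 6.15-fold and 7.13-fold, and Eno1 is 2.78-fold and 2.82-fold lower.

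Other genes of these pathways were counted from further lists with the same thresholds. Of 7 HIF subunits and oxygen sensing genes, Epas1, which encodes HIF-2 alpha, was the 1 past 2-fold between pulp and ligament at both ages. At P25 Epas1 was 154 CPM in pulp-like and 9.16 CPM in ligament-like cells, 16.9-fold higher, and at P6 it was 42.5 CPM in papilla or pulp-like and 4.38 CPM in follicle or ligament-like cells, 9.70-fold higher. In odontoblast-like cells it was 0.564 CPM. Of 18 other hypoxia response genes, 3 were higher and 4 lower in P25 pulp, against 14.8% and 8.35% of all genes, and 3 were higher and 3 lower in P6 papilla or pulp, against 6.53% and 6.65%, so they did not share 1 direction. Cox4i2, an alternative subunit of cytochrome oxidase, was 437.6 CPM in P25 pulp-like and 50.9 CPM in ligament-like cells, while the collagen cross-linking enzyme Lox was 45.5 CPM in pulp-like and 467.9 CPM in ligament-like cells. In odontoblast-like over pulp-like cells 13 of the 18 passed the minimum, 7 were higher and 3 lower, against 8.01% and 19.6% of all genes. Among the higher was the lysyl hydroxylase Plod2, with 575.6 CPM in odontoblast-like and 60.1 CPM in pulp-like cells.

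Of 13 pentose phosphate and serine genes, 3 were higher in P25 pulp-like than ligament-like cells, against 14.8% of all genes, led by G6pdx, the first enzyme of the pentose phosphate path, with 68.4 CPM in pulp-like and 6.86 CPM in ligament-like cells. At P6 0 of 13 were past 2-fold, against 6.53% higher and 6.65% lower of all genes. Pck2, the mitochondrial enzyme that makes phosphoenolpyruvate, was 129.8 CPM in P25 pulp-like and 31.1 CPM in ligament-like cells, and 150.2 CPM in P6 papilla or pulp-like and 28.4 CPM in follicle or ligament-like cells. Of 23 pyruvate entry and TCA cycle genes and 22 respiratory chain subunits, 0 were past 2-fold between pulp and ligament at either age. Of all genes, 14.8% were higher and 8.35% lower in pulp at P25, and 6.53% and 6.65% at P6. Between P25 and P6 ligament 5 of 23 TCA genes and 3 of 22 respiratory chain subunits were lower, against 17.1% of all genes. In pulp 0 and 3 were lower, against 9.42%. Whether the shares of these lists differ from those of all genes was not tested.

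Lining epithelium-like cells had far higher levels of most glycolytic members than ligament-like cells, with 14 of 31 at least 2-fold higher and 1 lower, against 19.1% and 16.8% of 5782 genes and median log2 ratios of 1.74 over 19 members and 0.20 over all genes. Slc2a1 was 73.7 CPM in lining epithelium-like and 4.84 CPM in ligament-like cells, 15.2-fold higher. Ldha was 1493 CPM in lining epithelium-like and 185 CPM in ligament-like cells, 8.06-fold higher, and Pkm was 1310 CPM in lining epithelium-like and 221.9 CPM in ligament-like cells, 5.90-fold higher. Every member of lower glycolysis but Eno2 was among the 14. Hk2 was the 1 lower, with 21.2 CPM in lining epithelium-like and 44.6 CPM in ligament-like cells, and its call was lost in 5 of 9 other settings, with log2 ratios between −1.47 and −0.34. The serine enzyme Psat1 was 58.8 CPM in lining epithelium-like and 2.74 CPM in ligament-like cells, 1 of 9 of the 13 pentose phosphate and serine genes that were higher.

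Connective tissue fibroblast-like cells had 5 of 31 members at least 2-fold higher than ligament-like cells (11.6% of all genes) and 0 lower (5.98%), with 17 members above the minimum. Adm was 65.6 CPM in connective tissue fibroblast-like and 4.52 CPM in ligament-like cells, 14.5-fold higher, and Slc2a1 was 68.3 CPM in connective tissue fibroblast-like and 4.84 CPM in ligament-like cells, 14.1-fold higher. At resolution 0.5 the fibroblast class took in 143 cells of a ligament-like cluster, and 1 of 31 was higher (6.68%), Slc16a1. Adm and Slc2a1 were then not called, although their log2 ratios were 2.51 and 2.46, and Pfkp (0.66) and Ndrg1 (0.60) were under 2-fold. Neutrophil-like cells had 8 of 31 higher than macrophage-like cells (10.9%) and 1 lower (20.4%), led by Slc2a3, with 56.1 CPM in neutrophil-like and 3.09 CPM in macrophage-like cells. In macrophage-like cells 0 of 31 were higher than in pulp-like cells, against 1138 of 6315 genes, and 7 were lower (22.4%), with 16 members above the minimum. Adm, 1 of these, was not called with the best list alone or with doublets kept. The lower members included Ldhb with 27.8 CPM in macrophage-like and 603.6 CPM in pulp-like cells. Schwann-like cells had 4 of 31 higher than pulp-like cells (15.7%) and 5 lower (13.5%), with Ndrg1 at 1177 CPM in Schwann-like and 16.7 CPM in pulp-like cells. Above the minimum were 18 members in the neutrophil and 21 in the Schwann comparison.

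Endothelial-like cells had 4 of 31 members higher than pulp-like cells at P25 (18.9% of all genes) and 7 lower (13.7%), and 3 higher (15.5%) and 5 lower (13.9%) than papilla or pulp-like cells in Cxcl12-GFP P6. Slc2a1, the transporter of vessel barriers, was 134 CPM in P6 endothelial-like and 13.7 CPM in papilla or pulp-like cells, 9.81-fold higher (7.62 to 12.6), and Ldhb was 95.5 CPM in endothelial-like and 1295 CPM in papilla or pulp-like cells, 13.6-fold lower. Mural-like cells had 2 of 31 higher (6.70%) and 3 lower (6.86%) than papilla or pulp-like cells, with Hk2 at 57.7 CPM in mural-like and 22.3 CPM in papilla or pulp-like cells. Against papilla or pulp-like cells, Col9a1-high cells had 0 of 31 higher (0.899%) and 1 lower (2.01%), namely Adm, at 18.6 CPM in Col9a1-high and 41.2 CPM in papilla or pulp-like cells. In these 4 comparisons 18 or 19 members were above the minimum.

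The shallow Cxcl12-creER P6 library allowed a pair of comparisons. P25 osteoblast or cementoblast-like cells had 1 of 31 members at least 2-fold higher (4.90% of all genes) and 6 lower (17.0%) than those of Cxcl12-creER P6 (89 cells). The 1 higher was Pdk4, which rested on 1 UMI in Cxcl12-creER P6. Eno1 was 80.1 CPM at P25 and 263.7 CPM in Cxcl12-creER P6, and Ldhb was 53.1 CPM at P25 and 127 CPM in Cxcl12-creER P6, a call lost in 4 of 10 other settings. Pgk1 is among the 6, but the gene lists of these libraries differ in a near copy of it, so its levels are not compared. Within Cxcl12-creER P6, dental epithelium-like cells had 0 of 31 higher (5.26%) and 8 lower (46.4%) than osteoblast or cementoblast-like cells, with 14 members above the minimum. Ldha was 46.7 CPM in dental epithelium-like and 489.8 CPM in osteoblast or cementoblast-like cells, 10.5-fold lower (7.56 to 14.7). With median-of-ratios scaling 1 of 31 was lower (10.8%), Ldha, and 1 higher (21.2%), so the other 7 calls were lost. The class pools unlike clusters. The cluster led by enamel genes (88 cells) had 0.0946% of UMIs in the 17 enzymes and 40.02 CPM of Ldha, and the keratin cluster (42 cells) had 0.402% and 117.9 CPM, where osteoblast or cementoblast-like cells had 0.282% in the enzymes. Aldoa was 88.5 CPM in the enamel gene cluster, 734.5 CPM in the keratin cluster and 367 CPM in osteoblast or cementoblast-like cells.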

How the data were processed

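The values are raw UMI counts per gene and cell, deposited by the authors as 1 matrix per library. Per the submitters' processing notes Cell Ranger, Seurat and the mm10 genome were used, and per the file headers P25 was made with Cell Ranger 3.1.0, and Cxcl12-creER P6 with 6.0.0. The sources used here give no aligner settings. Kept cells had 500 genes or more and no more than 15% of UMIs from mitochondrial genes. Simulated doublets (expected rate 0.8% per 1000 cells) led to the removal of 256 P25, 452 Cxcl12-GFP P6 and 10 Cxcl12-creER P6 barcodes. Each library was clustered by Leiden (resolution 1.0) on 30 principal components of 2000 variable genes, without the members, the other listed genes, Cxcl12, the reporters and mitochondrial, ribosomal or haemoglobin genes. A cluster was named from 21 marker lists where at least 3 markers were 1.5-fold higher and seen in 10% of cells, the score reached 0.9 and led by 0.1. The score and lead were not required for the Col9a1-high list. A cluster stayed unnamed where cycling genes or markers of another class outnumbered its own among its 10 leading genes. Shallow clusters without an own marker there also stayed unnamed. These naming thresholds were set after the clusters had been seen. Counts were summed per class. Level intervals are exact Poisson, share intervals exact binomial and ratio intervals conditional binomial, all 95%. PCR and droplet losses are not covered by them. A member was called where the ratio was at least 2-fold on log2(CPM + 1), the mean at least 20 CPM and the interval left out 1. Where a count was 0, the upper limit is 3 UMIs. Full values were given for isozymes of 1 step and, per comparison, for at most 12 members past 2-fold by size, and of each other list for at most 4. The members and all lists were chosen with earlier results of these data known. The procedure was tested on simulated counts. Clustering used leidenalg 0.10.2, igraph 0.11.9 and scikit-learn 1.9.0, figures matplotlib 3.10.9, and all other steps scipy 1.17.1, pandas 2.3.3 and numpy 2.4.6 under Python 3.11.15. Alternatives were another clustering resolution, mitochondrial limit, scaling, minimum level, naming rule and doublet treatment, and single clusters left out.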

Additional observations from a re-analysis of the deposited data

Results flagged for a closer look

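Pkm, the enzyme of the last step of glycolysis, stood in opposite directions between pulp and ligament at the different ages. At P25 Pkm was 194.7 CPM in pulp-like and 221.9 CPM in ligament-like cells, a log2 ratio of −0.19. In Cxcl12-GFP P6 it was 549.7 CPM in papilla or pulp-like and 263.4 CPM in follicle or ligament-like cells, a log2 ratio of 1.06. The log2 ratio at P25 minus that at P6 was −1.25, and this difference was not tested, since each age has 1 library. At P6 the Pkm level was 746 CPM in the apical papilla-like cluster and 434 and 433 CPM in the coronal pulp-like clusters.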

How the results depend on the processing

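No paired analysis was possible because each group has 1 library. Over the alternatives, 111 counts of members called between odontoblast, osteoblast, pulp and ligament classes stayed within 1.5 times the reported value and 17 did not. With the best marker list alone, the members higher were 1 for odontoblast over pulp (4.75% of all genes), 3 for P25 pulp over ligament (8.59%) and 3 for P6 papilla or pulp over follicle or ligament (5.83%). With doublets kept they were 1 for odontoblast over pulp (4.50%), 3 for P25 pulp over ligament (8.39%), 3 for P6 papilla or pulp over follicle or ligament (5.01%) and 1 for P25 over P6 pulp (8.41%). With a minimum of 5 CPM there were 1 higher (4.39%) and 4 lower (12.5%) for osteoblast over ligament, 2 lower for P25 pulp over ligament (8.35%), 3 lower for P6 papilla or pulp over follicle or ligament (7.04%), 5 higher for P25 over P6 pulp (10.6%), and 4 higher (8.83%) and 6 lower (17.4%) for P25 over P6 ligament. Median-of-ratios scaling gave 1 lower for P25 pulp over ligament (13.1%). Without the P6 ligament-like cluster 2 were lower for P6 papilla or pulp (7.25%), and without the P6 follicle-like cluster 2 were higher for P25 over P6 ligament (7.66%), both chosen after seeing the data. Of the members' calls, 1088 held under the alternatives, 132 were lost in the same direction and 3 reversed. The minimum of 5 CPM leaves ratios and intervals as they were and can end no call. The 135 calls held there were thus fixed in advance. It is counted among the settings wherever calls kept or lost are given. Of the lost calls 29 still had a ratio of at least 2-fold, and 103 did not. The reversed ones were all in dental epithelium over osteoblast of Cxcl12-creER P6: Tpi1 0.01 with median-of-ratios scaling and 0.01 as a mean over cells, and Aldoa 0.04 as a mean over cells. Ldhb, Pfkl and Slc16a1 were past 2-fold in all 9 settings of P25 pulp over ligament, with Ldhb between 2.17 and 3.05 log2 units. The cause of each difference was not tested. Depth limits Cxcl12-creER P6 most, with a median of 1459 UMIs per cell. The odontoblast comparisons gave no value at resolution 2.0. Cxcl12-GFP P6 was not set against Cxcl12-creER P6, which had 21 follicle or ligament-like cells.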

Other observations

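Classes of fewer than 50 cells entered no comparison. Among them, 38 osteoclast-like cells of the P25 library had 0.573% of their UMIs in the 17 enzymes, with Aldoa at 1294 CPM and Aldoc at 65.9 CPM, where no P25 class of at least 50 cells passed 472.5 CPM of Aldoa or 3.72 CPM of Aldoc. The 29 bone marrow stromal-like cells of P25 had 192.9 CPM of Hk2, where the classes of at least 50 cells had at most 44.6 CPM.

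The unlike clusters pooled as P25 neutrophil-like cells differed in transporters. The larger cluster scored 4.89 on the neutrophil and 4.08 on the macrophage marker list, and the smaller scored 10.04 on the neutrophil list. The smaller cluster had 157.5 CPM of Slc2a3 and 203 CPM of Slc16a3, and the larger had 9.94 CPM of Slc2a3 and 12.4 CPM of Slc16a3. Their median mitochondrial shares were 0.612% in the smaller and 4.35% in the larger cluster, and the part of this in the difference was not tested.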
